A study of Arabidopsis thaliana with 12 samples.

Results

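The ethylene response factors (ERFs) are plant transcription factors that bind DNA through a single AP2 domain, and their transcripts were followed here in 12 RNA-seq libraries of Arabidopsis thaliana seedlings. The genes were chosen by name and annotation: the gene name begins with ERF and a digit, or the description begins with "Ethylene-responsive transcription factor". A list of 8 loci, most of them CBF and DREB2 genes, was to be left out. Before that step 101 loci matched, so few of the listed loci matched the names. The rule gave 100 of the 32833 loci, and 73 of these reached at least 1 TPM (transcript abundance scaled to a fixed library total) in 3 or more libraries. The label did not hold for 3 of the 73: ERF1-1, ERF1-2 and ERF1-3 are named after eukaryotic release factor 1, encode peptide chain release factors of translation, and share only the letters of the name. The remaining 70 are ERF transcription factors, and the counts below are over these 70 unless the release factors are named. The 27 loci that were not kept stayed at or under 1.65 TPM in each library, 5 of them were listed at 0 throughout, and 5 reached 1 TPM in 1 or 2 libraries.

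ERF proteins fall into structural groups named by Roman numerals. Groups I to III belong to the DREB subfamily, whose best known members bind the dehydration-responsive element, and groups V to X to the ERF subfamily, many of whose members bind the GCC box in promoters of defence genes. Ethylene is sensed by receptors that, without the hormone, keep the kinase CTR1 active; with the hormone, EIN2 signals to EIN3 and EIL1, which switch on ERF genes such as ERF1B. Group VIII holds repressors with an EAR motif, group VI the cytokinin response factors (CRFs), and group VII the factors that the N-degron pathway destroys while oxygen is present.

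Seedlings were 10 days old and had been raised with 16 h of light and 8 h of darkness per day. There were 4 groups of 3 libraries. The first was uvr8 exposed to UV-B of 5 µmol m-2 s-1 on top of white light, the second Col-0 exposed to the same light, the third Col-0 given 50 µM of the drought hormone abscisic acid (ABA) without UV-B, and the fourth Col-0 left in white light. Treatments lasted 3 h, and ABA was given to the third group alone. Col-0 is the common laboratory accession, and uvr8 is a mutant of the UV-B photoreceptor UVR8, whose allele the labels do not give. A white-light library of uvr8 was not analysed here, so genotype and UV-B cannot be told apart where uvr8 is set against white-light Col-0. Where uvr8 is set against Col-0 under UV-B, a difference between genotypes present without UV-B cannot be told apart from one that needs UV-B. The labels call the replicates biological and separately prepared from germination on.

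UVR8 itself stood at 20.8 to 23.6 TPM in the uvr8 libraries, against 66.9 to 73.8 TPM in Col-0 under UV-B, 89.96 to 98.79 TPM with ABA and 105.6 to 107.5 TPM in white light, so no uvr8 library overlapped a Col-0 library. The deposited TPM keep no read number, so the depth is unknown and no counting interval can be given. Each library summed to between 998197.5 and 998680.8 TPM, with 18557 to 19214 genes at 1 TPM or more, and no pair of libraries was identical. The 4 shoot markers (RBCS1A, LHCB1.1, LHCB2.1 and RCA) were present in each library and summed to 4814 TPM at the lowest and 8438 TPM at the highest. Of the 4 root markers, 3 reached 1 TPM, and the 4 seed storage markers summed to at most 5.59 TPM, in an ABA library.

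In white light the ERF transcripts covered a wide range, with a median gene at 11.2 TPM, 12 genes at a mean of 50 TPM or more and 21 under 5 TPM. RAP2-2, a group VII factor, had the highest mean there, 147 ± 8.35 TPM (SD, n = 3), followed by RAP2-4 of group I at 137 ± 3.19 TPM, RAP2-12 of group VII at 113 ± 6.81 TPM and ERF106 of group IX at 111 ± 12.3 TPM. The mean of RAP2-4 lay closer to that of RAP2-2 than the 2 SDs together, as did that of ERF106 to RAP2-12. The 70 genes summed to 1720 to 1895 TPM in uvr8 under UV-B, 1481 to 1553 TPM in Col-0 under UV-B, 1976 to 2268 TPM with ABA and 1758 to 1850 TPM in white light. The sum was lowest in Col-0 under UV-B and highest with ABA, and neither range overlapped another group; after the scaling described below the ABA sums stayed apart at 2130 to 2583 TPM, but those of Col-0 under UV-B (1567 to 1650 TPM) overlapped those of uvr8 (1526 to 1796 TPM). RAP2-6 alone made up 21.9% to 22.9% of the sum with ABA, against 4.45% to 5.42% in white light. Without RAP2-6 the ABA sums were 1542 to 1748 TPM, against 1680 to 1759 TPM in white light, and overlapped.

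**Figure D1:**
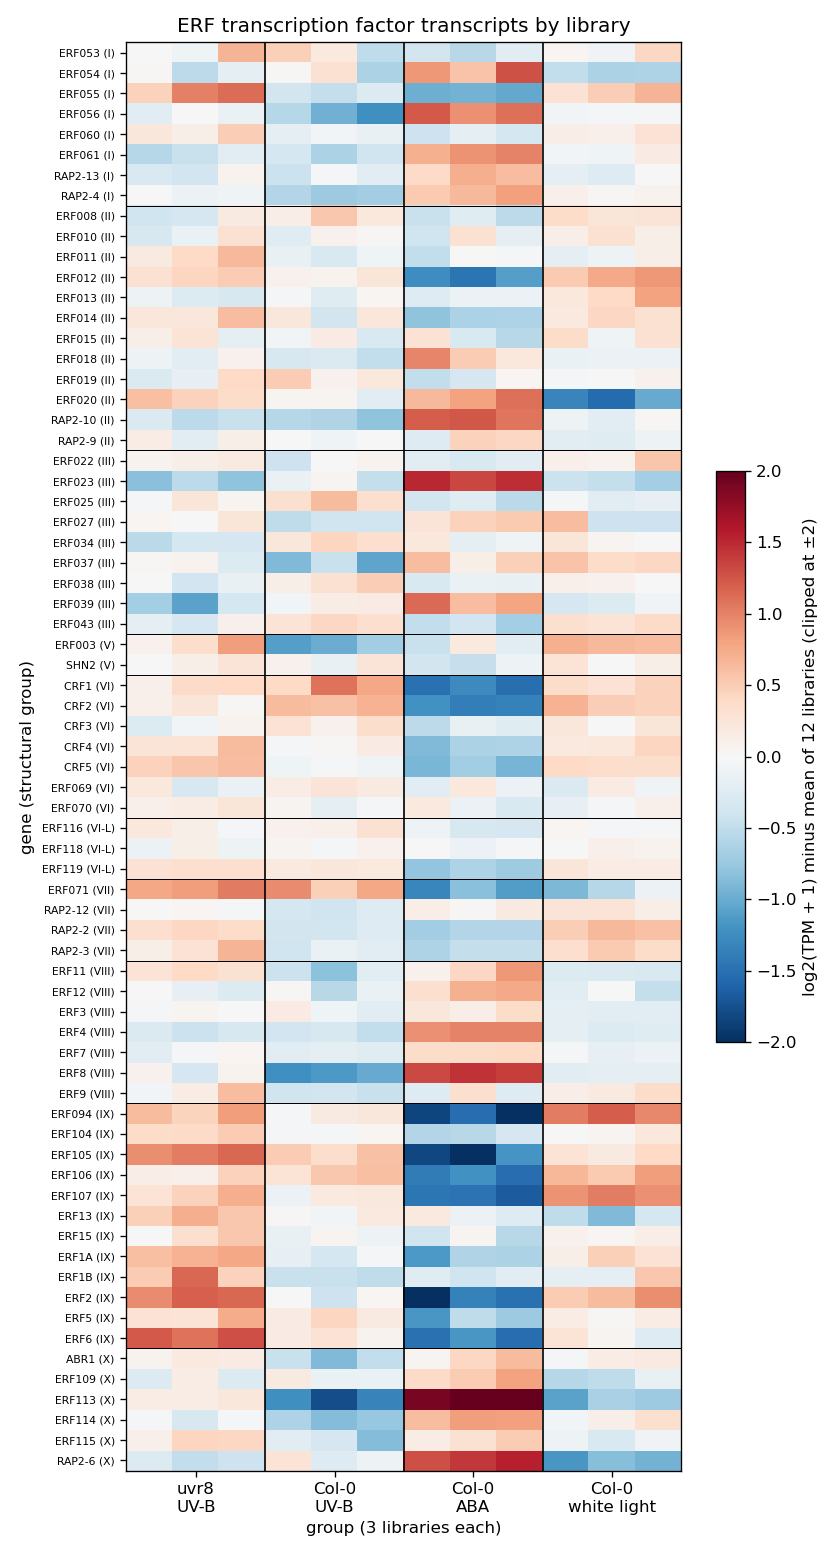
Each row is 1 of the 70 ERF genes, with its structural group in brackets, and each column 1 of the 12 libraries. Colour gives log2(TPM + 1) minus the gene's mean over the 12 libraries, clipped at 2 in either direction; in the ABA columns most rows of group IX are blue and most of groups VIII and X red.

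Each gene was tested with limma on log2(TPM + 1), in 1 fit over the 12 libraries, with Benjamini-Hochberg adjustment over 19922 genes and a threshold of 0.05. A log2 change below is on this scale and is followed by ± its SE; it understates the change of genes near 1 TPM. The comparisons share groups, so they are not independent of each other. TPM of all genes shifted between groups: the median of all genes tested was -0.152 with UV-B, 0.195 in uvr8 against Col-0 under UV-B and -0.238 with ABA on the log2 scale. After TMM-style scaling of the TPM, which sets these medians close to 0 (-0.004, 0.003 and -0.019), some smaller changes crossed the threshold, and counts over the family, its groups and the gene lists are also given after scaling.

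More ERF genes passed the test with ABA than with UV-B or in uvr8, and more of them by at least 1 log2 unit. Of the 70 genes, 50 passed the test (71.4%, against 54.6% of all genes tested), 22 of them higher and 28 lower. The higher genes were 31.4% of the family, against 15.2% of all genes tested; the lower ones were 40.0%, against 39.4%. Changes of at least 1 log2 unit were found for 10 higher genes, where the background was 5.89%, and 13 lower genes, where it was 5.38%. After scaling, 24 were higher and 21 lower. Of the 19922 genes tested, 4725 were then higher and 4347 lower, so the shares of all genes given above hold before scaling only. Most genes of group IX (activators) and group VI (the CRFs) were lower and most of group VIII (repressors) and group X higher, while the 29 genes of groups I, II and III were mixed. Seedlings are mixtures of cell types, and in such bulk samples fewer cells of a type and less RNA per cell cannot be told apart. Beside this result, the summed root markers were 14.4 to 19.3 TPM with ABA, against 28.4 to 31.4 TPM in white light, with 3 of 3 tested members lower (2 after scaling). The summed shoot markers were 4814 to 5750 TPM with ABA, against 5654 to 6720 TPM in white light, with 3 of 4 lower (0 after scaling). Their part in the changes was not tested.

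In group IX, 9 of 12 genes fell with ABA, the same 9 also after scaling, and the median log2 change was -1.25. ORA59 (ERF094), which joins jasmonate and ethylene signals in defence against fungi, had 0.47, 0.83 and 0.20 TPM with ABA, against 9.67, 11.1 and 9.29 TPM in white light, and fell by 2.90 ± 0.16 log2 units (adjusted p = 5.6e-08). DEWAX (ERF107), a repressor of cuticular wax genes, had 9.0, 8.75 and 7.63 TPM with ABA, against 50.0, 54.4 and 50.1 TPM in white light and fell by 2.47 ± 0.12 (adjusted p = 1.8e-08). Both genes were lower in each ABA library than in any white-light library by a wide margin. ERF2, an activator at the GCC box, had 2.36, 4.73 and 4.22 TPM with ABA, against 19.9, 21.8 and 27.0 TPM in white light, and fell by 2.35 ± 0.20 (adjusted p = 1.37e-06). ERF106, the most abundant gene of the group, had 25.5, 29.0 and 23.4 TPM with ABA, against 109.7, 98.8 and 123 TPM in white light, and fell by 2.05 ± 0.12 (adjusted p = 9.73e-08).

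ERF6, a stress-responsive activator, had 0.92, 1.41 and 0.89 TPM with ABA, against 5.51, 4.62 and 3.51 TPM in white light, and fell by 1.41 ± 0.15 (adjusted p = 1.12e-05). ERF1A fell by 1.096 ± 0.14, with 21.4, 31.9 and 31.2 TPM with ABA, against 53.2, 68.6 and 60.4 TPM in white light. Neither gene's groups overlapped. ERF105, known from cold responses, was at 1.77, 0.83 and 3.28 TPM with ABA, against 10.8, 10.1 and 11.8 TPM in white light and fell by 2.09 ± 0.23 (adjusted p = 1.3e-05). Its value is uncertain, because the whole of its exon sequence, 965 bp, lies within exons of AT5G51180 on the other strand, and whether counting used strand is not stated by any source used here. The mean of AT5G51180 lay between 13.5 and 15.2 TPM in the 4 groups. ERF5 and ERF104, named after their values were seen, completed the 9 with log2 changes of -0.91 ± 0.17 and -0.58 ± 0.09. ERF13 was the member that passed the test upwards, at 2.53, 1.84 and 1.58 TPM with ABA, against 1.17, 0.67 and 1.42 TPM in white light. That call was lost without white-light replicate 2 (log2 change 0.368, adjusted p = 0.106) and without ABA replicate 1 (0.392, adjusted p = 0.0933), and with only the 2 groups fitted (adjusted p = 0.06).

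The repressors of group VIII went the other way, with 6 of 7 higher with ABA, also after scaling, and a median log2 change of 0.74. ERF4, an EAR-motif repressor known from ethylene and jasmonate signalling, had 199.6, 210.4 and 209.8 TPM with ABA, against 92.9, 87.2 and 88.8 TPM in white light, and rose by 1.196 ± 0.07 (adjusted p = 4.51e-08). ERF8 had 39.8, 43.6 and 41.4 TPM with ABA, against 12.9, 13.4 and 13.4 TPM in white light, and rose by 1.58 ± 0.11 (adjusted p = 3.5e-07). The ABA libraries of both genes lay far above those of white light and close to each other. The smaller rises, of members named after their values were seen, were 0.83 ± 0.18 for ERF12, 0.74 ± 0.19 for ERF11, 0.48 ± 0.08 for ERF7 and 0.45 ± 0.10 for ERF3. ERF9, at 15.5 ± 4.02 TPM with ABA and 18.9 ± 1.81 TPM in white light (SD, n = 3 each), did not pass the test (adjusted p = 0.188).

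Group X held the largest rises, with 5 of 6 genes higher and a median log2 change of 0.80; after scaling the count was 6. RAP2-6, a factor known to respond to ABA, salt and wounding, had 434, 475 and 519.9 TPM with ABA, against 78.3, 97.6 and 91.6 TPM in white light, and rose by 2.41 ± 0.13 (adjusted p = 3.81e-08). Its close relative RAP2.6L (ERF113) had 59.2, 64.9 and 79.8 TPM with ABA, against 6.70, 9.30 and 8.78 TPM in white light, and rose by 2.90 ± 0.16 (adjusted p = 4.09e-08). With ABA, RAP2-6 had the highest mean of the 70 genes. ERF109, ERF114 and ERF115, named after their values were seen, rose by 0.98 ± 0.20, 0.63 ± 0.12 and 0.48 ± 0.18. ERF109 stayed under 2 TPM and shares 661 bp of exon with an overlapping gene, and the call for ERF115, a gene known from root stem cell division, was lost without any 1 white-light library (adjusted p 0.0609 to 0.132), without ABA replicate 2 (0.0773), without ABA replicate 3 (0.137) and without uvr8 replicate 2 (0.0504), and also with no filter (0.0555) and with a pseudocount of 0.1 (0.0586). ABR1, known as a repressor of ABA responses, had 67.0, 86.7 and 101 TPM with ABA, against 62.9, 71.5 and 72.9 TPM in white light, and its groups overlapped (adjusted p = 0.127).

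**Figure D2:**
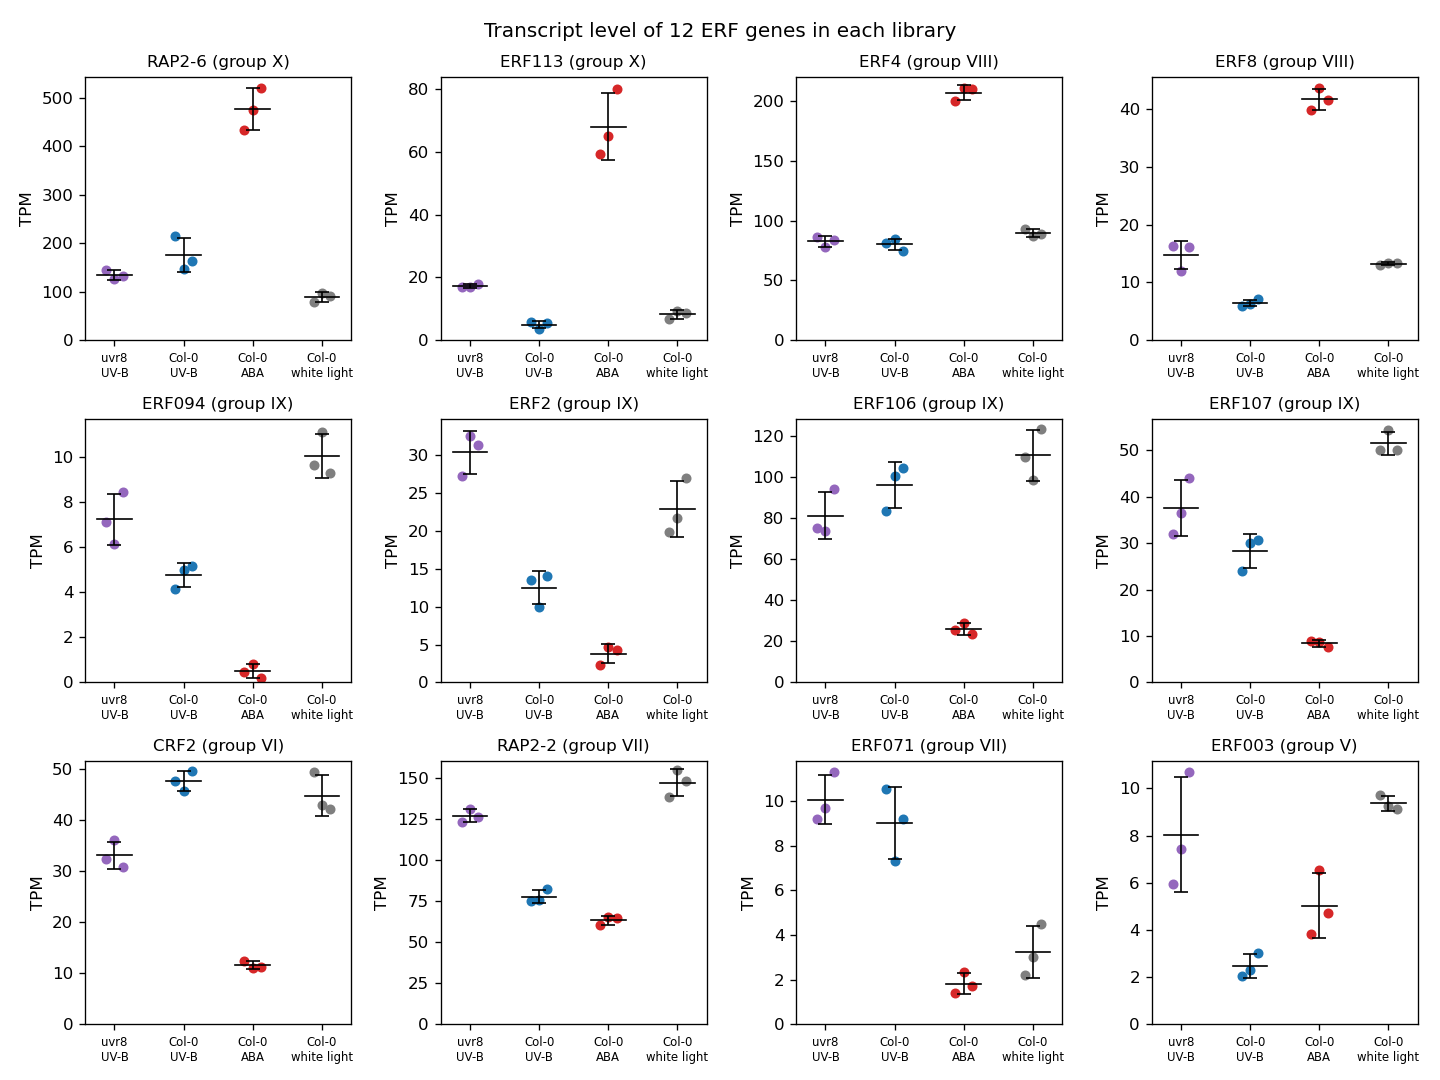
TPM of 12 ERF genes in each library, with 1 panel per gene and its own axis from 0; points are libraries, the long bar is the group mean and the whiskers 1 SD (n = 3). RAP2-6, ERF113, ERF4 and ERF8 are highest with ABA, and ERF094, ERF2, ERF106, ERF107 and CRF2 are lowest there.

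The CRFs of group VI, which act in cytokinin signalling, were lower with ABA in 5 of 7 cases (4 after scaling). CRF2 had 12.5, 10.98 and 11.3 TPM with ABA, against 49.5, 42.9 and 42.2 TPM in white light, and fell by 1.86 ± 0.09 (adjusted p = 1.15e-08). CRF1 was at 1.03, 1.36 and 1.01 TPM with ABA, against 6.35, 5.98 and 6.80 TPM in white light and fell by 1.79 ± 0.16 (adjusted p = 3.1e-06). The ranges of neither gene overlapped. CRF5 fell by 1.21 ± 0.08, and CRF4, named after its values were seen, fell by 0.99 ± 0.12. CRF3, the most abundant of the group, had a mean of 29.7 ± 4.05 TPM with ABA and 41.1 ± 4.08 TPM in white light (SD, n = 3 each), and its call was lost after scaling (adjusted p = 0.241).

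Groups I, II and III, of the DREB subfamily, were mixed. In group I, 5 of 8 genes rose with ABA and 2 fell (1 after scaling). The most abundant of them, RAP2-4, a factor known from wound-induced dedifferentiation, had 189, 206 and 232 TPM with ABA, against 139.5, 133 and 137 TPM in white light, and rose by 0.60 ± 0.08 (adjusted p = 4.83e-05). ERF056 rose by 1.12 ± 0.15, with 16.2, 12.9 and 14.9 TPM with ABA, against 6.06, 6.16 and 6.24 TPM in white light. ERF054 was at 10.2, 8.11 and 13.9 TPM with ABA, against 3.37, 2.96 and 3.02 TPM in white light, a rise of 1.48 ± 0.24. None of these 3 genes had overlapping groups. In group II, 3 of 12 genes rose and 4 fell (4 and 3 after scaling). ERF020 had 6.54, 7.37 and 9.34 TPM with ABA, against 0.92, 0.65 and 1.40 TPM in white light, and rose by 2.14 ± 0.17 (adjusted p = 7.75e-07). DEAR4 (RAP2-10) had 26.3, 27.1 and 24.0 TPM with ABA, against 9.97, 9.11 and 10.96 TPM in white light, and rose by 1.28 ± 0.11 (adjusted p = 1.3e-06). DREB26 (ERF012) moved the other way, with 4.45, 3.72 and 5.02 TPM with ABA, against 17.6, 20.8 and 22.6 TPM in white light and fell by 1.98 ± 0.12 (adjusted p = 8.71e-08). In group III, 2 of 9 genes rose, ERF023 by 1.98 ± 0.15 and ERF039 by 1.07 ± 0.18, and 2 fell (1 after scaling), among them ERF043, the most abundant of the group, which fell by 0.85 ± 0.11. The other, ERF022, named after its values were seen, lost its call without any 1 ABA library or white-light replicate 3 (adjusted p 0.0667 to 0.163).

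With UV-B in Col-0 and before scaling, the ERF genes were called about as often as all genes, and like all genes more often lower than higher. UV-B changed 28 of the 70 genes (40.0%, against 40.1% of all genes tested), 5 of them higher (7.14%, background 12.3%) and 23 lower (32.9%, background 27.8%). Only ERF020 and ERF071 rose, and only ERF003 and ERF037 fell, by 1 log2 unit or more, where the backgrounds were 3.96% and 2.62%. The median log2 change of the family was -0.156, beside -0.152 over all genes tested. After scaling 12 genes were higher and 18 lower, so the share of called genes that were higher was 40.0%, in place of 17.9%. Of the 19922 genes tested, 3763 were then higher and 3462 lower, so all genes no longer leaned lower. The summed shoot markers moved as well: they were 7598 to 8438 TPM with UV-B, against 5654 to 6720 TPM in white light, with 3 of 4 higher (4 after scaling). Of the root markers, 1 of 3 was lower (0 after scaling). When single libraries were left out, the count was 1 to 3 for the shoot markers and 0 to 1 for the root markers. Their part in the changes was not tested.

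ERF071 (HRE2), a low-oxygen factor of group VII, had 10.5, 7.31 and 9.19 TPM with UV-B, against 2.21, 3.04 and 4.5 TPM in white light, and rose by 1.26 ± 0.20 (adjusted p = 0.000371). ERF020 had 3.98, 3.97 and 3.09 TPM with UV-B, against 0.92, 0.65 and 1.40 TPM in white light, and rose by 1.25 ± 0.17 (adjusted p = 0.000105). In neither gene did a UV-B library overlap white light. RAP2-6 had 214, 147 and 164 TPM with UV-B, against 78.3, 97.6 and 91.6 TPM in white light, a rise of 0.96 ± 0.13 (adjusted p = 0.000125). The other higher genes were ERF13 and ERF025, named after their values were seen; the call for ERF13 was lost without white-light replicate 2 (adjusted p = 0.0559) and that for ERF025 without UV-B replicate 2 of Col-0 (adjusted p = 0.0608). ERF003, a factor of group V, had 2.06, 2.29 and 3.04 TPM with UV-B, against 9.73, 9.27 and 9.12 TPM in white light, and fell by 1.59 ± 0.20 (adjusted p = 6.81e-05). ERF037 of group III had 3.29, 4.85 and 2.82 TPM with UV-B, against 10.8, 9.19 and 9.54 TPM in white light, and fell by 1.24 ± 0.18 (adjusted p = 0.000162). Both genes were lower in each UV-B library than in any white-light library.

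By group, UV-B lowered 5 of 8 genes in group I (3 after scaling), 4 of 12 in group IX (3 after scaling) and 3 of 6 in group X (3 after scaling). RAP2-4 of group I had 87.2, 78.7 and 80.7 TPM with UV-B, against 139.5, 133 and 137 TPM in white light, and fell by 0.73 ± 0.08 (adjusted p = 1.79e-05). In group IX, ORA59 (ERF094) fell by 0.93 ± 0.16, DEWAX (ERF107) fell by 0.85 ± 0.12 and ERF2 fell by 0.82 ± 0.20. ERF1A fell by 0.48 ± 0.14, a call lost after scaling (adjusted p = 0.137), without white-light replicate 2 (0.0821) and without UV-B replicate 2 of Col-0 (0.0772). In group VIII, ERF8 had 6.0, 6.33 and 7.09 TPM with UV-B, against 12.9, 13.4 and 13.4 TPM in white light, and fell by 0.93 ± 0.11 (adjusted p = 4.4e-05). ERF8 was thus lower than in white light with UV-B and higher with ABA, in 2 comparisons that share the white-light libraries.

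**Figure D3:**
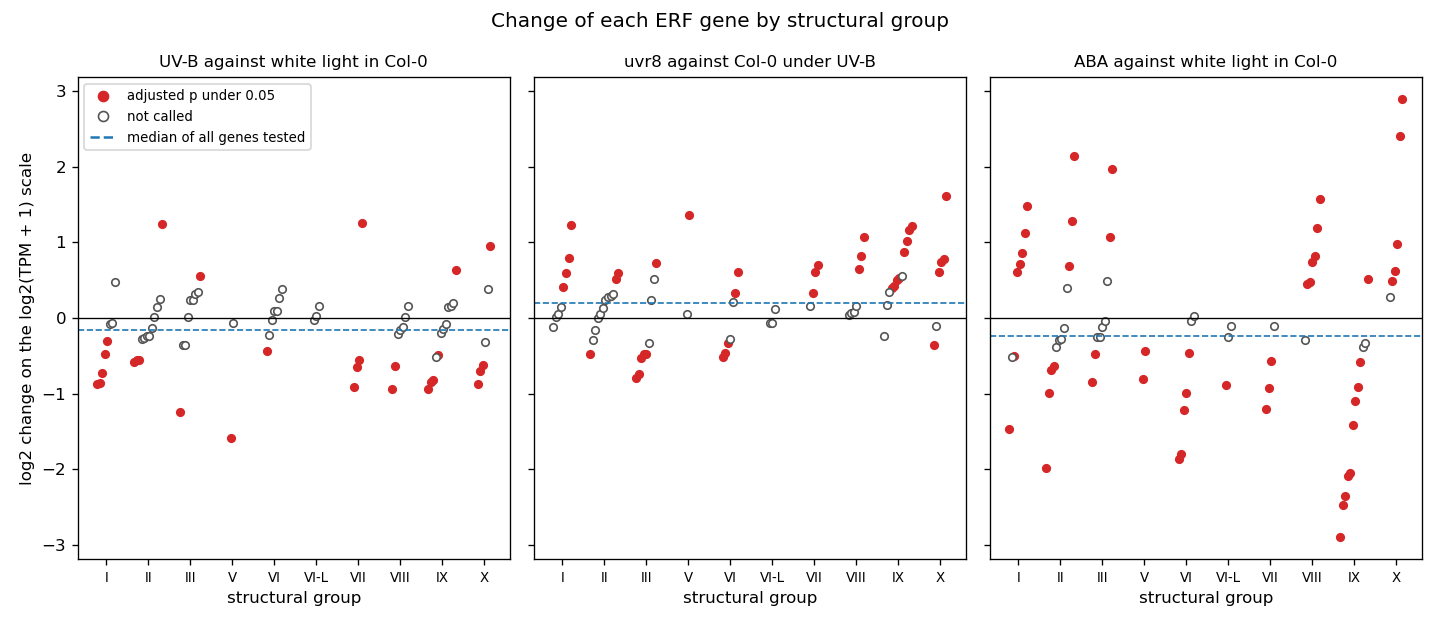
Log2 change on the log2(TPM + 1) scale of each of the 70 ERF genes, by structural group, in 3 comparisons; filled points have an adjusted p under 0.05, and the dashed line is the median of all genes tested. With ABA, 9 of 12 group IX points are filled below 0 and 6 of 7 group VIII points filled above it.

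In uvr8 against Col-0 under UV-B and before scaling, more ERF genes were higher than lower, as were more of all genes tested. In uvr8, 38 of the 70 genes differed from Col-0 (54.3%, against 44% of all genes tested), 28 of them higher (40.0%, background 32.8%) and 10 lower (14.3%, background 11.1%). The lower count was 6 without uvr8 replicate 2. After scaling 17 were higher and 14 lower, so the called genes were 54.8% higher in place of 73.7%. Of the 19922 genes tested, 3681 were then higher and 3795 lower. The summed shoot markers were 5841 to 6903 TPM in uvr8, against 7598 to 8438 TPM in Col-0, with 2 of 4 lower (4 after scaling). Of the root markers, 1 of 3 was higher before scaling and 1 lower after it. The higher root call was lost without Col-0 UV-B replicate 1 and without uvr8 replicate 2. The markers' part in the differences was not tested. At 1 log2 unit or more, 7 genes were higher (background 4.04%), and the lowest log2 difference of the 70 was -0.79, so no gene was lower by as much (background 3.51%). The 7 were ERF113, ERF003, ERF055, ERF2, ERF1B, ERF8 and ERF6, of which ERF055 and ERF1B stayed under 5 TPM and were named after their values were seen.

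ERF113 had 16.9, 16.9 and 17.9 TPM in uvr8 under UV-B, against 5.93, 3.74 and 5.43 TPM in Col-0 under UV-B, and was 1.62 ± 0.16 log2 units higher (adjusted p = 8.97e-06). ERF2 had 27.2, 32.6 and 31.4 TPM in uvr8, against 13.6, 9.98 and 14.0 TPM in Col-0, a difference of 1.22 ± 0.20 (adjusted p = 0.000359). ERF8 had 16.4, 11.96 and 16.0 TPM in uvr8, against 6.0, 6.33 and 7.09 TPM in Col-0, a difference of 1.07 ± 0.11 (adjusted p = 1.45e-05). In all 3 genes the lowest uvr8 library was above the highest Col-0 library. ERF6 had 11.7, 10.5 and 12.2 TPM in uvr8, against 5.05, 5.63 and 4.71 TPM in Col-0, a difference of 1.02 ± 0.15 (adjusted p = 0.000213). ERF003 had 5.95, 7.42 and 10.7 TPM in uvr8, against 2.06, 2.29 and 3.04 TPM in Col-0, a difference of 1.36 ± 0.20 (adjusted p = 0.000212). ERF1B, the direct target of EIN3, was at 1.80, 3.38 and 1.71 TPM in uvr8, against 0.46, 0.45 and 0.39 TPM in Col-0 (1.17 ± 0.23, adjusted p = 0.00172). The uvr8 libraries of these genes were again all higher, with ERF1B low in both genotypes.

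Group IX had 8 of 12 genes higher in uvr8 (median log2 difference 0.52), but 5 without Col-0 UV-B replicate 1, and 4 higher and 1 lower after scaling. Group X had 4 of 6 higher, also after scaling. ERF1A, of group IX, had 74.9, 79.9 and 84.4 TPM in uvr8, against 43.5, 38.2 and 47.4 TPM in Col-0 (0.88 ± 0.14, adjusted p = 0.000443). The CRFs were split, with 2 of 7 higher in uvr8 and 3 lower (1 and 3 after scaling). CRF5 was higher by 0.61 ± 0.08, and CRF2 lower (log2 difference -0.51 ± 0.09, adjusted p = 0.000598). The other calls, CRF4 higher and CRF1 and CRF3 lower, were each lost without several single libraries. They were also lost with only the 2 groups fitted (adjusted p = 0.0614, 0.0897 and 0.0552). Group III was the group with most lower members, 5 of 9 (6 after scaling). Among them, ERF039 had 5.35, 3.80 and 6.92 TPM in uvr8, against 8.79, 10.2 and 10.3 TPM in Col-0 (log2 difference -0.79 ± 0.18, adjusted p = 0.00368). ERF043 had 22.2, 19.9 and 27.1 TPM in uvr8, against 30.6, 34.1 and 32.3 TPM in Col-0 (-0.48 ± 0.11, adjusted p = 0.00428). In both genes each uvr8 library was below each Col-0 library. ERF034, named after its values were seen, was also lower (-0.74 ± 0.12). RAP2-6 had 146, 126 and 132 TPM in uvr8, against 214, 147 and 164 TPM in Col-0, and its adjusted p of 0.0412 passed the threshold narrowly: without Col-0 UV-B replicate 1, its highest library, the log2 difference was -0.209 (adjusted p = 0.152), and without Col-0 UV-B replicate 3, uvr8 replicate 2 or 3 or white-light replicate 3 the adjusted p was 0.0541 to 0.126. The call was also lost with no filter (0.0615), without the trend (0.0586) and with only the 2 groups fitted (0.0754).

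Set against Col-0 in white light, uvr8 under UV-B differed in few ERF genes. The test called 10 of 70 (14.3%, against 5.11% of all genes tested), 6 higher (8.57%, background 3.83%) and 4 lower (5.71%, background 1.28%). After scaling 6 were again higher and 4 lower, 9 of them the same genes. Of the 19922 genes tested, 659 were then higher and 433 lower. Leaving out white-light replicate 1 or uvr8 replicate 1 gave 6 (5 higher and 1 lower), and the range over the left-out libraries was 6 to 12. The higher genes were ERF020, ERF071, ERF6, ERF13, ERF113 and RAP2-6, and the lower ones ERF013, ERF034, ERF043 and CRF2. ERF020 had 6.26, 5.63 and 5.19 TPM in uvr8 under UV-B, against 0.92, 0.65 and 1.40 TPM in Col-0 in white light (1.76 ± 0.17, adjusted p = 0.000135). ERF071 had 9.21, 9.70 and 11.3 TPM in uvr8 under UV-B, against 2.21, 3.04 and 4.5 TPM in Col-0 in white light (1.41 ± 0.20, adjusted p = 0.00208). ERF6 had 11.7, 10.5 and 12.2 TPM in uvr8 under UV-B, against 5.51, 4.62 and 3.51 TPM in Col-0 in white light (1.18 ± 0.15, adjusted p = 0.00117). The groups of these genes did not overlap, and the calls held without each library in turn for all 3. For RAP2-6 (left-out white-light replicate 1 or 3, or uvr8 replicate 1 or 3), CRF2 (white-light replicate 1, or uvr8 replicate 1 or 3), ERF013 (white-light or uvr8 replicate 2 or 3), ERF034 (white-light or uvr8 replicate 1 or 2) and ERF043 (each white-light library, uvr8 replicate 1 or 2, or Col-0 UV-B replicate 3) they did not, with adjusted p 0.052 to 0.135. With only the 2 groups fitted the calls for ERF013 (adjusted p = 0.0741) and ERF043 (0.0736) were lost, and that for ERF043 also after scaling (0.0645) and without the trend (0.0503).

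Set directly against ABA, UV-B gave 53 called genes of 70 (75.7%, against 56.0% of all genes tested), 27 higher (38.6%, background 32.1%) and 26 lower (37.1%, background 23.9%). After scaling 25 were higher and 26 lower, beside 5834 higher and 5639 lower of the 19922 genes tested. By at least 1 log2 unit, 11 were higher (background 8.13%) and 12 lower (background 7.71%). With UV-B, 9 of 12 genes of group IX and 5 of 7 of group VI were higher than with ABA, and 6 of 7 of group VIII and 6 of 6 of group X lower, with the same counts after scaling. Of the markers, 4 of 4 for shoot and 2 of 3 for root were higher with UV-B than with ABA, also after scaling. The root count was 1 without any 1 of the Col-0 UV-B libraries and without ABA replicate 1 or 3. The markers' part was not tested. ERF113 differed most, with 5.93, 3.74 and 5.43 TPM with UV-B, against 59.2, 64.9 and 79.8 TPM with ABA (-3.52 ± 0.16, adjusted p = 3.87e-09). Among the group VII genes that the rule gave, ERF071 had the widest gap. It had 10.5, 7.31 and 9.19 TPM with UV-B, against 1.41, 2.33 and 1.74 TPM with ABA (1.82 ± 0.20, adjusted p = 8.39e-06).

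Of group VII the rule gave 4 genes, which are not the whole published group. RAP2-2, RAP2-3 and RAP2-12 were among the abundant ERF transcripts and ERF071 was scarce. RAP2-2 had 123, 131 and 126 TPM in uvr8 under UV-B, 75.3, 75.8 and 82.1 TPM in Col-0 under UV-B and 60.3, 65.1 and 64.7 TPM with ABA, against 138, 155 and 148 TPM in white light. It fell by 0.91 ± 0.07 with UV-B (adjusted p = 6.72e-07) and fell by 1.1995 ± 0.07 with ABA (adjusted p = 4.31e-08), and was 0.70 ± 0.07 higher in uvr8 than in Col-0 under UV-B (adjusted p = 6.63e-06). RAP2-3 had 72.6, 82.2 and 108.2 TPM in uvr8 under UV-B, 50.9, 61.5 and 57.7 TPM in Col-0 under UV-B and 43.7, 47.9 and 48.0 TPM with ABA, against 85.4, 97.0 and 86.6 TPM in white light. RAP2-12 had 97.9, 99.6 and 94.8 TPM in uvr8 under UV-B, 75.7, 73.8 and 81.4 TPM in Col-0 under UV-B and 106, 98.9 and 110.0 TPM with ABA, against 116.1, 118 and 105 TPM in white light. These 3 genes fell with UV-B, also after scaling, and were lowest there or with ABA. Of the 3, RAP2-2 alone kept a higher call in uvr8 after scaling; the adjusted p was then 0.071 for RAP2-3 and 0.182 for RAP2-12. A stretch of 399 bp of RAP2-12 has an identical copy in AT1G53887, so its level is uncertain. With UV-B, ERF071 rose while the others fell. With ABA it was called lower, at 1.41, 2.33 and 1.74 TPM, against 2.21, 3.04 and 4.5 TPM in white light (-0.57 ± 0.20), but that call was lost after scaling (adjusted p = 0.135), with only the 2 groups fitted (0.0666) and without white-light replicate 2 or 3 or ABA replicate 1 or 3 (0.0601 to 0.135).

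Genes switched on at low oxygen, where group VII factors act, did not move as 1 block. With UV-B, 3 of 7 tested fell (HB1, PCO1 and HRA1), 3 also after scaling, beside 27.8% of all genes tested; the median log2 change was -0.447, beside -0.152 over all genes. ADH1 passed the test upwards at 0.35 ± 0.12, a call lost without any 1 of the white-light libraries or Col-0 UV-B replicate 1 or 3 (adjusted p 0.0529 to 0.108). In uvr8 against Col-0 under UV-B, 4 of 7 were higher (1 after scaling), beside 32.8% of all genes tested, with a median of 0.554, beside 0.195 over all genes. ADH1, alcohol dehydrogenase, had 322, 334 and 407 TPM with ABA, against 38.9, 42.6 and 43.02 TPM in white light, and rose by 3.06 ± 0.12 (adjusted p = 2.44e-09). HB1, a non-symbiotic haemoglobin, had 9.07, 27.5 and 21.01 TPM with ABA, against 100.1, 99.8 and 122.1 TPM in white light, and fell by 2.55 ± 0.32 (adjusted p = 4.01e-05). With ABA, PCO1 and HRA1 fell as well.

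The genes upstream of the ERFs, which make, sense and transmit ethylene, were mostly lower with UV-B. In Col-0 under UV-B, 7 of 10 tested synthesis genes, 3 of 5 receptor genes and 7 of 8 signalling genes fell; after scaling the counts were 5, 3 and 7. Of all genes tested, 27.8% fell before scaling. The other 6 of the 23, ACS2, ACS6, ACS7, ETR1, EIN4 and EIL3, did not pass the test, with log2 changes from -0.22 to 0.08. The lists' median log2 changes were -0.60, -0.96 and -0.75, beside -0.152 over all genes tested. In uvr8 against Col-0 under UV-B, 8 of 10, 3 of 5 and 7 of 8 were higher, and 7, 3 and 6 were higher after scaling, beside 32.8% of all genes tested before it. Both comparisons rest on the same Col-0 libraries from UV-B. ACS8, which makes the ethylene precursor ACC, had 16.6, 15.0 and 14.5 TPM in uvr8 under UV-B and 2.70, 2.21 and 5.62 TPM in Col-0 under UV-B, against 13.5, 17.0 and 17.6 TPM in Col-0 in white light. Its log2 change was -1.98 ± 0.22 with UV-B (adjusted p = 2.8e-05) and 1.93 ± 0.22 in uvr8 against Col-0 (adjusted p = 3.22e-05). ERS1, a receptor, had 77.4, 81.6 and 80.4 TPM in uvr8 under UV-B and 35.9, 28.6 and 34.4 TPM in Col-0 under UV-B, against 58.9, 69.0 and 74.4 TPM in Col-0 in white light. Of these 3 groups, Col-0 under UV-B was the low one for both genes.

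The kinase gene CTR1 was at 59.0 ± 3.90 TPM in uvr8 under UV-B and 29.7 ± 2.28 TPM in Col-0 under UV-B, against 51.4 ± 5.80 TPM in white light (SD, n = 3 each). EIN3, the transcription factor at the end of the pathway, was at 101 ± 0.53 TPM in uvr8 under UV-B and 60.6 ± 3.99 TPM in Col-0 under UV-B, against 99.9 ± 2.14 TPM in white light. Its partner EIL1 was at 43.3 ± 3.57 TPM in uvr8 under UV-B and 21.5 ± 1.34 TPM in Col-0 under UV-B, against 44.3 ± 1.37 TPM in white light. All 3 fell with UV-B and were higher in uvr8, and none passed the threshold when uvr8 was set against white-light Col-0 (adjusted p = 0.375, 0.963 and 0.901). EBF2, which targets EIN3 for destruction, fell by 1.04 ± 0.09 with UV-B. Of 5 downstream defence genes, 3 were higher in uvr8 than in Col-0 under UV-B, also after scaling: HEL, PDF1.2A and PDF1.2C. Of all genes tested, 32.8% were higher before scaling. HEL, a hevein-like protein gene, had 22.1, 24.9 and 35.7 TPM in uvr8, against 6.53, 5.70 and 5.94 TPM in Col-0 (1.99 ± 0.21, adjusted p = 1.84e-05). The defensin gene PDF1.2A was low, with 7.21, 4.65 and 11.3 TPM in uvr8, against 0.86, 3.85 and 1.24 TPM in Col-0 (1.61 ± 0.44, adjusted p = 0.0116). PDF1.2C was lower still, with 3.02, 1.78 and 6.89 TPM in uvr8, against 0.0, 0.19 and 0.98 TPM in Col-0. Shared sequence was not checked for the defensin genes, so PDF1.2A and PDF1.2C may not count as separate results.

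With ABA the ethylene genes were divided. Of the synthesis genes 1 rose and 5 fell, of the receptors 1 rose and 3 fell, and of the signalling genes 4 fell; after scaling 2 signalling genes were higher and 2 lower, and the other counts stayed. Of all genes tested, 15.2% rose and 39.4% fell, and the signalling genes' median of -0.23 lay near the -0.238 of all genes. ERS2 was the receptor that rose, with 16.3, 19.7 and 19.4 TPM with ABA, against 6.48, 8.04 and 5.26 TPM in white light (1.37 ± 0.16, adjusted p = 2.08e-05). ERS1 fell by 0.90 ± 0.10 (adjusted p = 1.73e-05). EIN3 did not pass the test with ABA, at 96.7 ± 5.32 TPM against 99.9 ± 2.14 TPM in white light (adjusted p = 0.558).

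**Figure D4:**
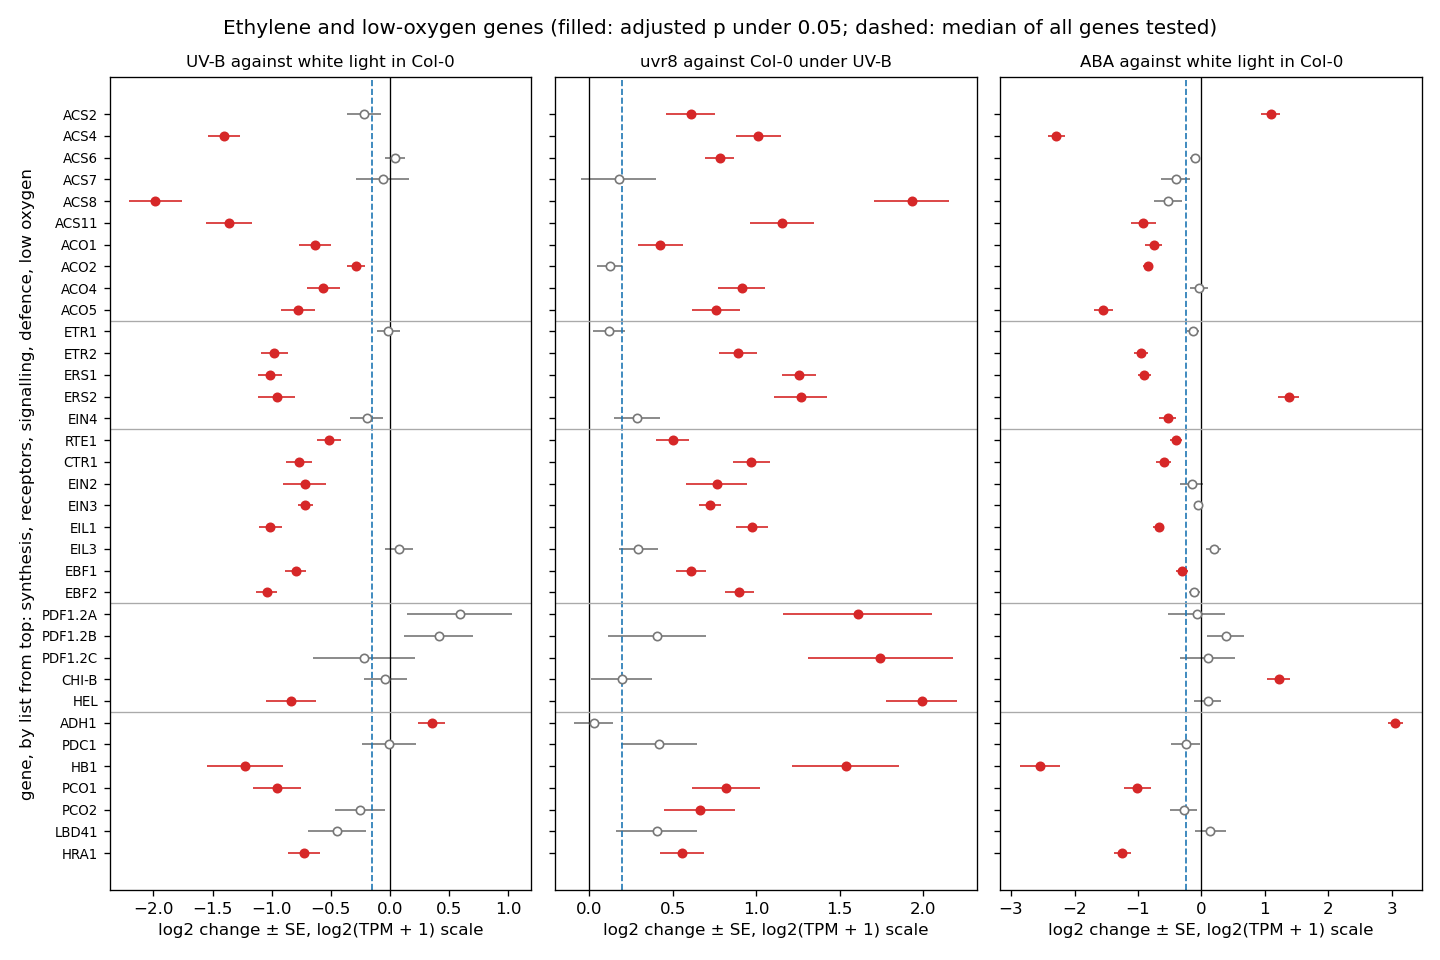
Log2 change ± SE on the log2(TPM + 1) scale of ethylene and low-oxygen genes in 3 comparisons, with lists separated by lines; filled points have an adjusted p under 0.05, and the dashed line is the median of all genes tested. With UV-B 7 of 10 synthesis and 7 of 8 signalling genes lie filled below 0, and 8 of 10 and 7 of 8 lie filled above 0 in uvr8 against Col-0.

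Of the 70 genes, 8 passed the test in none of the 5 comparisons before scaling: ERF010, ERF015, ERF053, ERF069, ERF070, ERF118, ERF15 and RAP2-9. After scaling, RAP2-9 was called higher with ABA, and ERF118 was called lower in uvr8 than in Col-0 under UV-B. ERF118, the most abundant of group VI-L, had 48.1 ± 4.31 TPM in uvr8 under UV-B, 50.2 ± 2.39 TPM in Col-0 under UV-B and 47.2 ± 1.72 TPM with ABA, against 51.0 ± 1.80 TPM in white light (SD, n = 3 each). RAP2-9 (DEAR5), the most abundant of group II, had 40.2, 67.3 and 65.1 TPM with ABA, against 41.5, 40.9 and 44.9 TPM in white light, so 1 ABA library lay below the others and the groups overlapped. The release factor genes, which are no transcription factors, changed by less than 0.5 log2 units, but several passed the test before scaling. With UV-B 1 rose and 2 fell, beside 12.3% and 27.8% of all genes tested. With ABA 2 of 3 fell, beside 39.4%, and 2 of 3 were higher in uvr8 than in Col-0 under UV-B, beside 32.8%. Their median log2 changes were -0.299, -0.306 and 0.203, beside -0.152, -0.238 and 0.195 over all genes, the same direction each time. ERF1-1 was at 117 ± 7.33 TPM with UV-B, against 97.6 ± 6.29 TPM in white light, and the log2 changes of the 3 genes lay between -0.47 and 0.26 in the UV-B and ABA comparisons with white light and in uvr8 against Col-0.

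Several members of group IX sit side by side in the genome (TAIR10.1 annotation). ERF107 (chr5:24764256-24765511) and ERF104 (chr5:24766344-24767732) lie 832 bp apart on the minus strand. They differed in size of change: with ABA, ERF107 fell by 2.47 ± 0.12 and ERF104 fell by 0.58 ± 0.09; with UV-B, ERF107 fell by 0.85 ± 0.12, and ERF104, at 24.0 ± 0.62 TPM against 25.4 ± 2.08 TPM in white light, did not pass the test. ERF6 (chr4:9752824-9754161, minus strand) and ERF1A (chr4:9759203-9760391, plus strand) are neighbours with 5041 bp between them, and ERF2 (chr5:19171643-19172956, minus strand) and ERF5 (chr5:19179881-19181182, plus strand) have 6924 bp and 2 other genes between them. In both pairs the 2 genes fell with ABA. In group VIII, ERF12 (chr1:9951762-9953105, plus strand) and ERF11 (chr1:9955774-9956980, minus strand) lie 2668 bp apart, and both rose with ABA. Of the 70 genes, 9 share exon sequence with an overlapping gene, among them ERF019, ERF105 and ERF109, whose levels are uncertain for that reason.

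Promoters were searched because ABA-responsive genes are known to carry ACGT-core elements bound by bZIP factors. The 250 bases before each annotated gene start were scanned on both strands for the core ACGTG, the G-box CACGTG, the GCC box GCCGCC and the core CCGAC; a G-box also counts as the core ACGTG, once on each strand. The core ACGTG stood in 36.4% of the 22 ERF promoters higher with ABA, in 39.3% of the 28 lower with ABA and in 10.0% of the 20 not called, against 22.9% of 27443 protein-coding promoters. The G-box stood in 22.7%, 14.3% and 5.0% of those sets, against 6.49% of all protein-coding promoters. The GCC box stood in 5.71% of the 70 ERF promoters, against 1.87%, and the core CCGAC in 17.1%, against 12%. In the higher, lower and uncalled sets the GCC box stood in 4.55%, 3.57% and 10.0%. The core CCGAC stood in 9.09%, 10.7% and 35.0% of them, so it was most frequent in the genes not called. Promoters of 2 genes that rose (RAP2-6 and ERF4) and 2 that fell (ERF1A and ERF2) are shown as examples of the 10 ERF promoters with a G-box. The others were those of ERF094 and CRF5, which fell, ERF020, ERF12 and ERF109, which rose, and ERF15, which was not called. Bases are 5′ to 3′ on the gene's strand, read from the TAIR10.1 genome, and capitals mark the G-box and any further ACGTG core.
RAP2-6 (chr1:16263555-16263804, plus strand): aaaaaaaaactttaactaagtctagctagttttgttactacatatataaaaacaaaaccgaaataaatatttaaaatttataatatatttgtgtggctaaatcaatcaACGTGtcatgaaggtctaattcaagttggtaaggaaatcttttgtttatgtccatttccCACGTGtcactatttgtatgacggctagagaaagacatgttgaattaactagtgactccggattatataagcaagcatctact
ERF4 (chr3:5121053-5121302, plus strand): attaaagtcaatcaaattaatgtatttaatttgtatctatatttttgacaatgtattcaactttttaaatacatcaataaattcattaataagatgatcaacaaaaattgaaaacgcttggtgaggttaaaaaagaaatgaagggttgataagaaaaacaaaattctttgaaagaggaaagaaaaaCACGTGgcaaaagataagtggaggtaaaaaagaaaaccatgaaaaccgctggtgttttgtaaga
ERF1A (chr4:9758953-9759202, plus strand): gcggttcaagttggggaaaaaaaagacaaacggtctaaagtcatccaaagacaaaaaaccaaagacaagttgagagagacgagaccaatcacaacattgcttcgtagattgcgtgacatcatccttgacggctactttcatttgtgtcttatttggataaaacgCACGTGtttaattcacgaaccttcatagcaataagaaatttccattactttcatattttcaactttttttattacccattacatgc
ERF2 (chr5:19172957-19173206, minus strand): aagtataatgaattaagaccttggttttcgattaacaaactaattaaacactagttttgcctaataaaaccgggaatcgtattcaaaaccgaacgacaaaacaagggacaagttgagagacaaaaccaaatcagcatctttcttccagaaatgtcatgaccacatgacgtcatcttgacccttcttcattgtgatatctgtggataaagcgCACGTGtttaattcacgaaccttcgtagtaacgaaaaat
Counted back from the gene start, the G-box begins at position -83 in RAP2-6, -64 in ERF4, -86 in ERF1A and -39 in ERF2, and RAP2-6 has a further ACGTG core at -142. These matches are a description of letters in a window and not of bound sites.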

How the data were processed

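RNA of whole seedlings was made into TruSeq libraries and sequenced on an Illumina instrument, per the labels' protocols. The tables deposited by the authors give a TPM per gene and library, recognised as such because library sums hardly differ. TPM is scaled to transcript length and to a fixed sum, so abundant genes that rise lower the others. No source used here names the aligner, counting tool or strand setting; the submitters' processing notes name TAIR10.

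Members and gene lists were chosen with earlier results of these data known. Structural groups follow the published family numbering and were assigned by hand. The filter on low values was 1 TPM in 3 libraries. limma (3.58.1, R 4.3.3) was run with its trend option on log2(TPM + 1), as a single model of the 4 group means over 12 libraries with Benjamini-Hochberg adjustment over 19922 genes, after it had been tested on simulated data. Groups came from titles, genotypes and treatments. Named genes were, for UV-B, uvr8 and ABA, up to 12 per direction past an adjusted p of 0.05 and 1 log2 unit. Their group ranges did not overlap, and the higher group had 5 TPM or more. The most abundant gene of each group and the group VII genes that the rule gave were added, 32 in all. Not each is described. Others are said to be named after their values were seen.

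Alternatives were TMM-style scaling with trimming of 30% (log ratios) and 5% (mean levels), omitting the filter, omitting the trend, 0.1 as pseudocount, leaving each library out in turn, a block for the replicate number, and fitting the compared groups alone. Positions and promoters come from the TAIR10.1 annotation by locus; the tables carry no positions. Exons were compared with BLAST+ 2.17.0 at 95% identity over 150 bp. Python 3.11.15, pandas 2.3.3 and matplotlib 3.10.9 were used.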

Additional observations from a re-analysis of the deposited data

How the results depend on the processing

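Counts of called ERF genes of 70 kept within 1.5 times under each alternative, except that the 10 called between UV-B-treated uvr8 and white-light Col-0 became 6 without white-light replicate 1 and 6 without uvr8 replicate 1. Over the left-out libraries the counts ranged from 25 to 29 with UV-B, 32 to 39 in uvr8 against Col-0 under UV-B, 46 to 51 with ABA, 6 to 12 between UV-B-treated uvr8 and white-light Col-0 and 51 to 54 in UV-B against ABA. TMM-style scaling, which moved the median of all genes to near 0, changed the split between higher and lower calls for UV-B, for ABA and for uvr8 against Col-0 under UV-B, and left it at 6 and 4 between UV-B-treated uvr8 and white-light Col-0. Deviations from the group means correlated at -0.075 to 0.256 between same-numbered replicates, best with the own number in 8 of 15 cases. These cases reuse the same libraries and had no reference value, so whether the number pairs samples cannot be told. With the replicate block the counts were 28, 39, 49, 10 and 55. Among the genes named, the block ended the calls for RAP2-6 in uvr8 against Col-0 under UV-B (adjusted p = 0.0609) and ERF115 with ABA (0.0659). Between UV-B-treated uvr8 and white-light Col-0 it ended those for ERF034 (0.0523) and ERF043 (0.0649). Of 106 pairs of a named gene and a comparison that passed the test, 17 lost their call under at least 1 alternative and none reversed; scaling accounted for 11 lost calls. The cause was not tested. TPM keep no depth, so what the read number limits is unknown.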
